A study of Mus musculus with 56 samples.

Results

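Livers of mice given imatinib were compared with livers of mice given vehicle across all genes. The comparison takes 8 imatinib mice and 8 control mice, 16 of the 56 mice of the series, and the members were chosen by the treatment in the sample labels. Every mouse was a female APOE*3Leiden.CETP mouse, 9 to 14 weeks old at the start, a strain that carries human APOE*3Leiden and human CETP, the latter driven by its own flanking sequences, and that clears lipoproteins slowly as humans do. The human transgenes have no row of their own in these mouse gene counts. All mice ate a Western-type diet with 15% cacao butter and 0.15% cholesterol. Imatinib mice were gavaged 2 times a day with 150 mg/kg imatinib in 5% carboxymethyl cellulose, and control mice as often with this vehicle alone. The study asked how BCR-ABL1 tyrosine kinase inhibitors act on cardiovascular risk, and it also gave 8 sequenced mice each nilotinib at 10 or 30 mg/kg or ponatinib at 3 or 10 mg/kg. A further 8 mice labelled L-NAME are not compared here. Each library comes from a separate mouse.

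Imatinib blocks the ABL kinases and also the receptor kinases KIT, PDGFR, CSF1R and DDR, which drive mast cells, fibroblast-like cells and macrophages. The liver clears such drugs with cytochromes P450, whose genes are switched on by ligand-bound receptors: the aryl hydrocarbon receptor acts on the Cyp1 family, and the nuclear receptors CAR and PXR on the Cyp2b, Cyp2c and Cyp3a families. Another nuclear receptor, PPAR-alpha, responds to fatty acids and drives their oxidation. Resident macrophages of the liver, the Kupffer cells, are joined by monocyte-derived macrophages when lipid accumulates, and stellate cells lay down collagen.

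Total RNA was poly(A) selected and sequenced, and the counts are whole reads assigned to each gene of GRCm38. Control mice had 7696730 to 17996732 counts on genes and imatinib mice 7101060 to 10864365. Of the 45513 genes listed, 14090 passed edgeR's filter on low counts. Differences were tested by edgeR's quasi-likelihood test, and every adjusted p-value below comes from this test with Benjamini-Hochberg adjustment over the 14090 genes. A gene is said to have risen or fallen when its adjusted p-value was below 0.05. Expression is given in CPM, the counts of a gene relative to the size of its library after edgeR's TMM scaling, as the lowest, the median and the highest of the 8 mice of a group, in that order. CPM does not correct for gene length, so levels are compared between mice and not between genes.

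With imatinib 757 genes rose (5.37% of those tested) and 599 fell (4.25%). With the study's own cut-off, an unadjusted p below 0.01, 957 genes were higher and 831 lower. Of the called genes 191 fell and 58 rose by over 2-fold. The median log2 fold change of all 14090 genes was -0.02. All 8 imatinib mice lay above all 8 control mice for 101 genes (0.717%) and below them for 62 genes (0.44%). Scaled by library size alone, 591 genes rose and 890 fell, which turned the share of called genes that were higher from 55.8% to 39.9%.

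Hepatocyte markers were abundant in every library. Alb, the gene of serum albumin, was at 60972, 87174 and 112261 CPM in control mice and 71284, 80916 and 112111 CPM with imatinib (log2 fold change 0.01, SE 0.13, adjusted p = 0.98), so the groups overlapped fully. The summed level of the 10 hepatocyte markers was 86680 to 155300 CPM in control mice and 108100 to 152800 CPM with imatinib. Of these 10 genes, Ttr (transthyretin) rose and Cps1 (the first enzyme of the urea cycle) fell. The log2 fold change of Ttr was 0.45 (adjusted p = 0.038), a call that was lost in 10 of the 16 fits that left out 1 mouse, and that of Cps1 was -0.91 (adjusted p = 0.0042).

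The libraries of both groups differed in how their reads were assigned, and these measures moved alongside the results below. The counting program's tally of non-unique alignments was set against the sum of this tally and the uniquely aligned reads. This tally is of alignments and not of reads. The share of non-unique alignments was 31.7 to 33.9% in control mice and 34.1 to 38.9% with imatinib. It was higher in all 8 imatinib mice (exact permutation test, two-sided, p = 0.000155, the smallest p that 8 against 8 mice allow). Among uniquely aligned reads, 7.55 to 8.67% lay outside annotated exons in control mice and 8.16 to 14.1% with imatinib (exact permutation p = 0.00109), with imatinib replicate 4 farthest out. Reads that could belong to more than 1 gene made up 2.79 to 3.34% and 2.01 to 2.73% (exact permutation p = 0.000155), and counts on the mitochondrial chromosome 3.92 to 4.70% and 4.15 to 7.24% (exact permutation p = 0.00746). The 50 most abundant genes held 32.8% ± 1.93 and 33.1% ± 0.835 of the counts (SD, n = 8 mice each; exact permutation p = 0.735).

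Fold changes also followed the exonic length of a gene. The genes were split by length into 5 bins of 2808 to 2809 genes. In the bin of shortest genes the median log2 fold change was 0.25 and 357 genes rose while 47 fell. In the bin of longest genes the median was -0.15, with 37 genes up and 189 down. When the length trend of each library was entered as an offset, the medians of the 5 bins lay between 0.01 and 0.05, and 652 genes rose and 404 fell. With the share of reads outside annotated exons as a covariate, 232 genes rose and 148 fell. The part of these library measures in the gene results was not tested. Counts under these settings are given beside many of the gene lists. Of 173 called genes named by rule, 37 lost the call with the length offset and 74 with the covariate.

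**Figure D1:**
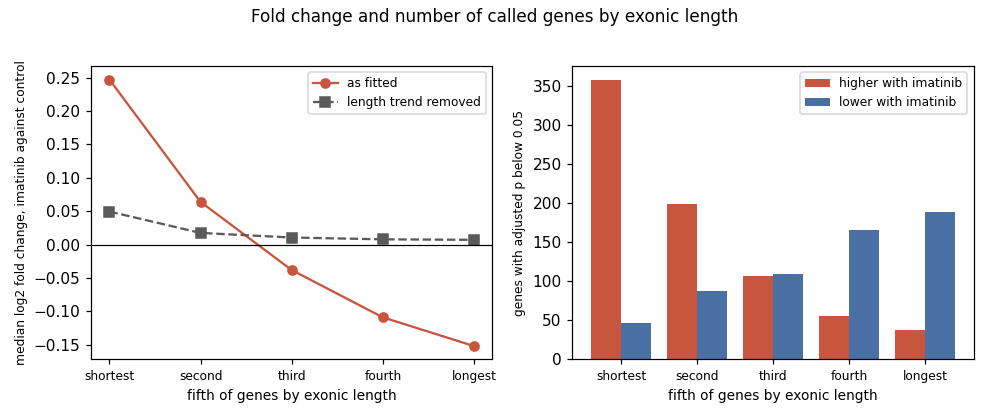
Median log2 fold change between imatinib and control (left) and number of genes with an adjusted p below 0.05 (right) in 5 bins of genes by exonic length. The median falls from 0.25 in the bin of shortest genes to -0.15 in the longest and lies between 0.01 and 0.05 once the length trend of each library is removed.

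The Cyp1a genes rose most clearly. They encode the cytochromes P450 of planar aromatic compounds and are the defining targets of the aryl hydrocarbon receptor. Cyp1a1 was at 0, 0.959 and 1.68 CPM in control mice and 10.6, 29.9 and 48.0 CPM with imatinib (log2 fold change 5.02, SE 0.66, adjusted p = 1.6e-06). Cyp1a2 was at 427, 496 and 691 CPM in control mice and 2686, 3372 and 3957 CPM with imatinib (log2 fold change 2.68, SE 0.17, adjusted p = 3.5e-17), the smallest p-value of all genes. For both genes the lowest imatinib mouse stood far above the highest control mouse. Both calls held in each of the 16 fits that left out 1 mouse, with the length offset and with the covariate. Both were called, and no other, of the 7 receptor targets tested. Cyp1b1, the remaining Cyp1 gene, was at 0, 2.74 and 4.62 CPM and 0.694, 1.92 and 2.51 CPM (log2 fold change -0.45, SE 0.70, adjusted p = 0.77), and Nqo1 (a quinone reductase) at 9.98, 15.4 and 47.7 CPM and 14.9, 16.8 and 30.1 CPM (log2 fold change 0.03, SE 0.29, adjusted p = 0.97).

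The promoters of both Cyp1a genes are shown because the pair lies head to head on chromosome 9 and rose together. Each run holds 250 bases before and 50 after the RefSeq transcription start on GRCm38.p6, 5′ to 3′ on the gene's strand, at chr9:57697363-57697662 (plus strand) for Cyp1a1 and chr9:57683606-57683905 (minus strand) for Cyp1a2. Capitals mark the core of the dioxin response element, GCGTG, searched on both strands.
Cyp1a1: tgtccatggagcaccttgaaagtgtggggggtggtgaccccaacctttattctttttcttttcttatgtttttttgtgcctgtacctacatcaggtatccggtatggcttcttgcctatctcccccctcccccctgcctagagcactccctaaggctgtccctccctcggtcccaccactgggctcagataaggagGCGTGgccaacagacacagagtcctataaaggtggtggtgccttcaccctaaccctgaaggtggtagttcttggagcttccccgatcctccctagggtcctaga
Cyp1a2: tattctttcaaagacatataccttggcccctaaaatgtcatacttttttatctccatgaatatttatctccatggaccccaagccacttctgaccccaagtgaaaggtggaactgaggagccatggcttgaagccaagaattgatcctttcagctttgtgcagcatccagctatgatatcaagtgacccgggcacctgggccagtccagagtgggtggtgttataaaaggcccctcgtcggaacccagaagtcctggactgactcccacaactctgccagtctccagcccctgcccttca
The Cyp1a1 window holds 1 copy, which begins 54 bases before the start, and these letters are not in the Cyp1a2 window. Of the 7 receptor targets with a promoter in the table, 5 hold the core (71.4%), against 54.4% of the 10263 tested genes with a promoter and 32.4% of all 32851 promoters. A match of these letters is a description and not a binding site.

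Genes of the CAR and PXR group rose as well. Of 22 genes of this list, the P450 genes and both receptors, 11 rose, and the median log2 fold change was 0.59 beside -0.02 for all genes. The number was 10 with the length offset and 9 with the covariate. Cyp2b10, the standard readout of CAR, was at 0, 4.28 and 8.18 CPM in control mice and 8.51, 25.8 and 67.4 CPM with imatinib (log2 fold change 2.96, SE 0.64, adjusted p = 0.0019). The lowest imatinib mouse lay just above the highest control mouse. Nr1i3, which encodes CAR itself, was at 319.8, 403 and 746 CPM and 625, 1151 and 1459.6 CPM (log2 fold change 1.13, SE 0.23, adjusted p = 8.0e-04), and 5 imatinib mice exceeded every control mouse.

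Cyp2c37 was at 127, 400 and 532 CPM in control mice and 675, 865 and 938 CPM with imatinib (log2 fold change 1.12, SE 0.23, adjusted p = 0.0011), and Cyp2c50 at 261, 476 and 595 CPM and 700.3, 834 and 948 CPM (log2 fold change 0.79, SE 0.13, adjusted p = 7.7e-05). In both genes the groups did not overlap. The log2 fold change was 0.65 (adjusted p = 0.0086) for Cyp2c29 and 0.62 (adjusted p = 0.0023) for Cyp3a25. Cyp2b9 and Cyp2b13, near relatives of Cyp2b10, had log2 fold changes of 0.39 (adjusted p = 0.13) and 0.17 (adjusted p = 0.71). Cyp3a44 and Cyp3a16 varied widely between mice, with 1.58, 5.79 and 25.8 CPM against 7.69, 30.1 and 207 CPM for Cyp3a44 (log2 fold change 3.01, adjusted p = 0.0067). Cyp3a16 was at 0.613, 0.970 and 16.9 CPM and 0, 10.3 and 171 CPM (log2 fold change 3.53, adjusted p = 0.026), a call lost in 5 of the 16 fits that left out 1 mouse. Genes of the Cyp2b, Cyp2c and Cyp3a families have near-identical copies, and reads that fit several copies were not counted, so their values are uncertain.

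Of the other P450 genes, 4 of 30 rose and 2 fell. Those that rose are Cyp2d10 (0.72, adjusted p = 4.1e-05), Cyp2d26 (0.54, adjusted p = 7.7e-04), Cyp2d9 (0.97, adjusted p = 0.011) and Cyp2a22 (1.06, adjusted p = 0.023). Those that fell are Cyp2c70 and Cyp4f18, the latter named after its value was seen (-2.53, adjusted p = 0.046). The Cyp2d9 call was lost without imatinib replicate 6 and that of Cyp2a22 in 3 of the 16 fits without 1 mouse. Cyp2c70, which makes the muricholic bile acids of mice, had a log2 fold change of -0.49 (edgeR adjusted p = 0.044), lost in 8 of the 16 fits without 1 mouse. Cyb5a, the cytochrome b5 that passes electrons to P450 enzymes, was at 584, 628 and 929 CPM in control mice and 961, 1296 and 1464 CPM with imatinib (log2 fold change 0.87, SE 0.12, adjusted p = 4.2e-06). Ces2e, a carboxylesterase, was at 155, 187 and 218 CPM and 273, 333 and 519 CPM (log2 fold change 0.94, SE 0.13, adjusted p = 3.3e-06). The groups did not overlap in either gene.

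**Figure D2:**
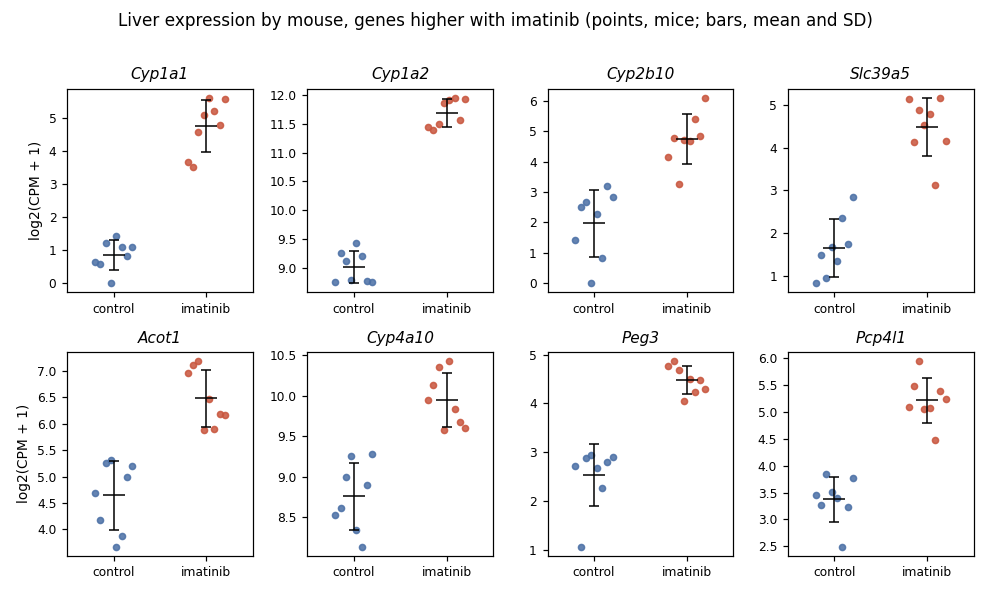
Expression of 8 genes that rose with imatinib, as log2(CPM + 1), in each of 8 control and 8 imatinib mice; the black bars give the mean and SD. The groups do not overlap in any of the 8 genes, and the gap is widest for Cyp1a1 and Cyp1a2. The rule for naming genes favours genes without overlap.

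Conjugating enzymes moved less evenly. Of the sulfotransferases 3 of 16 rose, 2 with the length offset and 1 with the covariate. Sult2a7 was at 0.242, 0.653 and 5.58 CPM in control mice and 2.13, 19.4 and 77.0 CPM with imatinib (log2 fold change 4.20, SE 0.75, adjusted p = 2.0e-04), and Sult2a1, which sulfates steroids and bile acids, at 11.4, 58.1 and 157 CPM and 2.56, 290.2 and 391 CPM (log2 fold change 1.96, SE 0.55, adjusted p = 0.015). For Sult2a1 7 imatinib mice exceeded all controls and 1 lay below all of them. The Sult2a1 call had an adjusted p of 0.13 with the covariate. The Sult2a genes are close copies of each other and are uncertain for the reason given above. Sult1a1, the phenol sulfotransferase, rose as well (0.52, adjusted p = 0.0045), but not with the length offset (adjusted p = 0.071) or the covariate (adjusted p = 0.11). Of 14 UDP-glucuronosyltransferases 1 rose and 1 fell (7.14% each, beside 5.37% and 4.25% of all genes). Ugt2b5 rose (log2 fold change 0.58, adjusted p = 0.0017) and Ugt1a6b fell (-0.76, adjusted p = 0.028). The Ugt1a6b call was lost without imatinib replicate 1, 3 or 5.

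Among glutathione S-transferases and targets of NRF2, the sensor of oxidants, 8 of 36 rose, 7 with the length offset and 2 with the covariate. Log2 fold changes were 1.07 (adjusted p = 0.0099) for Gstt2, 0.71 (adjusted p = 0.0036) for Ephx1 (microsomal epoxide hydrolase), 0.54 (adjusted p = 6.6e-04) for Mgst1 and 0.53 (adjusted p = 0.0047) for Gstt1. Nqo1, Gclc and Hmox1, defining NRF2 targets, are not among those called. Gclc, which limits glutathione synthesis, had a log2 fold change of -0.17 (edgeR adjusted p = 0.73), and Hmox1 (heme oxygenase 1) one of -0.62 (adjusted p = 0.13).

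Several genes outside these families stood among those that rose most. Slc39a5, a zinc importer of the ZIP family, was at 0.776, 2.00 and 6.16 CPM in control mice and 7.69, 24.3 and 34.7 CPM with imatinib (log2 fold change 3.21, SE 0.56, adjusted p = 1.3e-04). The groups did not overlap. It was the only one of 11 metallothionein and zinc transporter genes that rose, and the zinc-responsive metallothioneins Mt1 and Mt2 had log2 fold changes of 0.64 (adjusted p = 0.49) and 0.17 (adjusted p = 0.91). Peg3, a paternally expressed imprinted gene, was at 1.09, 5.75 and 6.70 CPM and 15.5, 21.3 and 28.1 CPM (log2 fold change 2.07, SE 0.32, adjusted p = 2.7e-05). Pcp4l1 was at 4.64, 9.80 and 13.4 CPM and 21.2, 34.9 and 60.4 CPM (log2 fold change 1.95, SE 0.27, adjusted p = 4.2e-06), and Htatip2 at 41.5, 56.4 and 68.9 CPM and 104, 126 and 178 CPM (log2 fold change 1.21, SE 0.17, adjusted p = 3.9e-06). In each of these genes all imatinib mice were above all control mice, but the rule for naming genes favours such a separation.

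Of genes that do not encode a protein, Gm26917, annotated as a long intergenic RNA at chr17:39843013-39846341 on GRCm38, had the second smallest p-value of all genes. It was at 65.0, 90.8 and 133 CPM in control mice and 267, 400.3 and 893 CPM with imatinib (log2 fold change 2.17, SE 0.20, adjusted p = 3.3e-11), with imatinib replicate 6 far above the rest. Snhg11, a host gene of small nucleolar RNAs that the annotation lists as protein coding, was at 1.91, 4.67 and 6.58 CPM and 7.81, 13.2 and 21.9 CPM (log2 fold change 1.70, adjusted p = 0.007; adjusted p = 0.078 with the covariate). Whether reads counted on Gm26917 come from the annotated RNA or from another transcript of its interval was not tested. The share of non-unique alignments was higher in all 8 imatinib mice than in every control mouse. Imatinib replicate 6, the mouse with most Gm26917, also had the highest share of the imatinib mice, 38.9%. The part of this share in the results for Gm26917 and Snhg11 was not tested.

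Many genes of fatty acid oxidation rose. Of 37 PPAR-alpha targets tested 21 rose, and the median log2 fold change was 0.46. With the length offset 18 rose and with the covariate 14, and leaving out 1 mouse gave 15 to 23. Acot1, a cytosolic thioesterase that splits acyl-CoA, was at 11.8, 27.9 and 38.6 CPM in control mice and 58.0, 79.3 and 144 CPM with imatinib (log2 fold change 1.84, SE 0.31, adjusted p = 8.7e-05). Cyp4a10, the omega-hydroxylase of fatty acids, was at 280.3, 432 and 620.3 CPM and 759, 949.6 and 1375 CPM (log2 fold change 1.17, SE 0.19, adjusted p = 4.1e-05), and its relative Cyp4a31 at 8.28, 12.1 and 17.5 CPM and 22.8, 32.8 and 55.2 CPM (log2 fold change 1.46, SE 0.22, adjusted p = 2.1e-05). These 3 genes showed no overlap between groups, although the Cyp4a copies are near identical and uncertain in the same way.

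Fabp1, the fatty acid binding protein of the liver, was at 1207, 1662 and 3032 CPM in control mice and 2818, 3944 and 6213 CPM with imatinib (log2 fold change 1.15, SE 0.22, adjusted p = 4.3e-04). Vnn1, the pantetheinase, was at 47.2, 104 and 167 CPM and 133, 226 and 317 CPM (log2 fold change 1.09, SE 0.21, adjusted p = 3.7e-04). In both genes 6 imatinib mice exceeded all controls. Cpt1a, the gate to mitochondrial oxidation, had a log2 fold change of -0.14 (edgeR adjusted p = 0.68), and Ppara itself one of -0.80 (adjusted p = 0.053).

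Apolipoprotein genes followed. Of 19 genes of apolipoproteins and lipoprotein assembly 10 rose, with a median log2 fold change of 0.48, and the number was 5 with the length offset and 7 with the covariate. Apoa2, a main protein of HDL, was at 2651, 3363 and 4497 CPM in control mice and 4723, 7216 and 8433 CPM with imatinib (log2 fold change 1.00, SE 0.16, adjusted p = 4.1e-05). Apoc3, an inhibitor of lipoprotein lipase, was at 721, 893 and 1154 CPM and 1222, 1739 and 2080.5 CPM (log2 fold change 0.86, SE 0.15, adjusted p = 8.4e-05). Neither gene overlapped between groups. Log2 fold changes were 0.92 (adjusted p = 4.1e-05) for Apoc4, 0.91 (adjusted p = 0.001) for Apoa4 and 0.66 (adjusted p = 0.016) for Apoa1, the main HDL protein. The Apoa1 call was lost without imatinib replicate 1 or 2 and had an adjusted p of 0.14 with the length offset. Sar1b, needed to export lipoproteins from the endoplasmic reticulum, was at 164, 174 and 192 CPM and 199.9, 255 and 304 CPM (log2 fold change 0.51, SE 0.10, adjusted p = 8.9e-04).

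Genes that take up or split lipoproteins moved in both directions, with 1 of 15 up (6.67%, beside 5.37% of all genes) and 3 down (20%, beside 4.25%). Lpl, lipoprotein lipase, was at 64.4, 151 and 220 CPM in control mice and 16.9, 43.4 and 64.7 CPM with imatinib (log2 fold change -1.75, SE 0.28, adjusted p = 3.6e-05), and 7 imatinib mice lay below every control. Lrp1, a receptor of remnant particles, was at 791, 1053 and 1508 CPM and 497, 592 and 949 CPM (log2 fold change -0.69, SE 0.14, adjusted p = 0.0011). Scarb1, the HDL receptor SR-BI, had a log2 fold change of -0.42 (edgeR adjusted p = 0.048), lost in 11 of the 16 fits without 1 mouse. Angptl4, an inhibitor of lipoprotein lipase, had one of 0.68 (adjusted p = 0.048), lost in 12 of the 16. Among 17 lipid droplet genes, G0s2, the inhibitor of adipose triglyceride lipase, rose (log2 fold change 0.94, adjusted p = 0.0058), as did Plin2, the droplet coat protein (0.41, adjusted p = 0.038, lost in 7 of the 16 fits).

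Lipogenic genes went the other way where they moved. Of 24 SREBP1c targets 4 fell (3 with the length offset, 4 with the covariate). Scd1, stearoyl-CoA desaturase, was at 19518, 23611 and 33525 CPM in control mice and 6467, 12971 and 19435 CPM with imatinib (log2 fold change -0.97, SE 0.19, adjusted p = 5.8e-04), without overlap, and Scd2 at 24.3, 43.5 and 67.1 CPM and 13.5, 18.7 and 30.5 CPM (log2 fold change -1.22, SE 0.22, adjusted p = 2.2e-04). Srebf1, which encodes SREBP1c, was at 587, 701 and 993 CPM and 337, 469 and 687 CPM (log2 fold change -0.57, SE 0.16, adjusted p = 0.019), and Pklr (liver pyruvate kinase) had a log2 fold change of -0.63 (edgeR adjusted p = 0.032), lost in 7 of the 16 fits. The median of the list was -0.06. Acly and Mlxipl, the latter encoding the sugar sensor ChREBP, had log2 fold changes of -0.91 (adjusted p = 0.12) and 0.39 (adjusted p = 0.15).

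Of 20 genes of cholesterol synthesis 4 rose (5 with the length offset, 4 with the covariate), and the median log2 fold change was 0.56. The count was 1 without imatinib replicate 1, without control replicate 5 or without imatinib replicate 7, and 8 without imatinib replicate 5 or 6. Fdft1, squalene synthase, was at 41.1, 62.3 and 77.7 CPM in control mice and 73.1, 98.5 and 179 CPM with imatinib (log2 fold change 0.77, SE 0.18, adjusted p = 0.0032). The log2 fold change was 1.11 (adjusted p = 0.026) for Mvd, 0.82 (adjusted p = 0.035) for Cyp51 and 0.70 (adjusted p = 0.037) for Tm7sf2, each lost in 5 to 7 of the 16 fits. Hmgcs1, an early enzyme of the pathway, was at 171, 237 and 298 CPM and 144, 249 and 821 CPM (log2 fold change 0.58, SE 0.23, adjusted p = 0.11). The imatinib mice spread more widely than the controls, from below the lowest to above the highest control.

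Genes that sense or store sterols were mostly not called. Srebf2 and Insig1 had log2 fold changes of -0.14 (adjusted p = 0.67) and -0.02 (adjusted p = 0.97). Soat1, which esterifies cholesterol in macrophages, fell and was at 13.3, 22.2 and 35.4 CPM in control mice and 5.43, 10.9 and 17.4 CPM with imatinib (log2 fold change -1.15, SE 0.24, adjusted p = 0.001). Abcg1, a sterol exporter that macrophages express strongly, was at 26.4, 50.6 and 74.0 CPM and 10.1, 19.0 and 22.2 CPM (log2 fold change -1.48, SE 0.24, adjusted p = 4.3e-05), without overlap. Abca1, the other main exporter, had a log2 fold change of -0.48 (edgeR adjusted p = 0.008), lost with the length offset (adjusted p = 0.096) and the covariate (adjusted p = 0.16). Cyp7a1, the rate-limiting enzyme of bile acid synthesis, had one of -0.20 (adjusted p = 0.85), and Cyp27a1, which opens the alternative route, one of 0.39 (adjusted p = 0.021), lost in 3 of the 16 fits without 1 mouse.

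**Figure D3:**
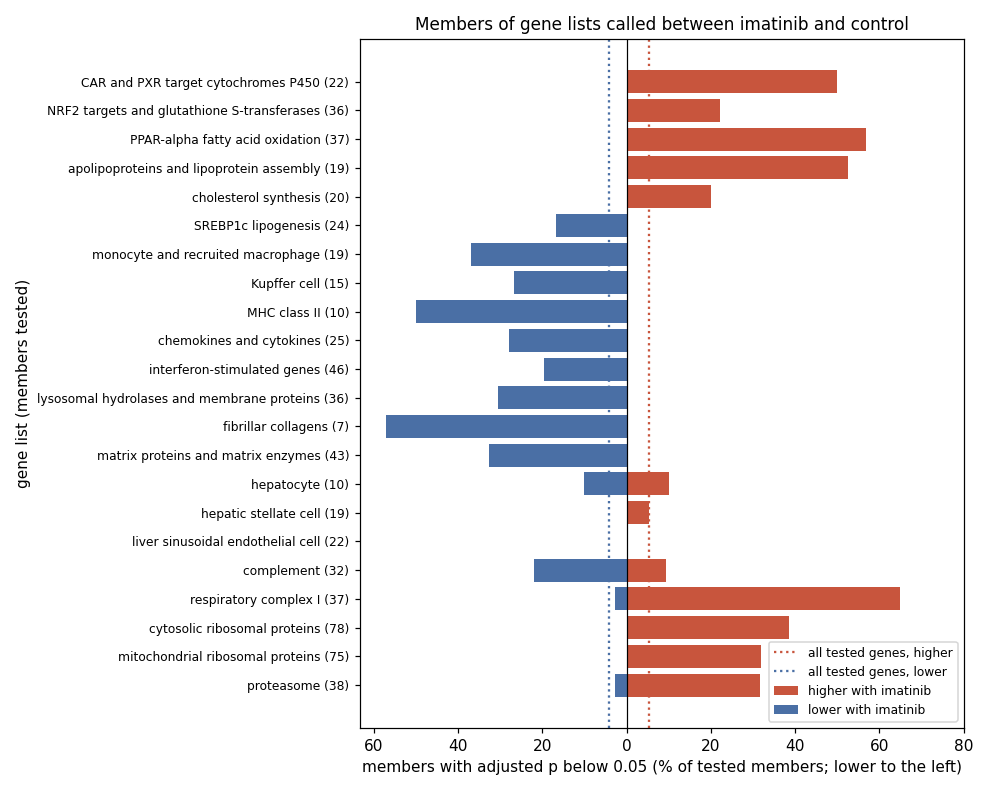
Share of tested members with an adjusted p below 0.05, higher (right) or lower (left) with imatinib, in 22 gene lists with the number of tested members in parentheses. Dotted lines give the share among all 14090 tested genes, 5.37% higher and 4.25% lower.

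Macrophage genes fell. In whole liver, fewer cells of a type and less RNA per cell cannot be told apart. Of 19 markers of monocytes and recruited macrophages 7 fell and 18 had a negative log2 fold change, with a median of -1.46. With the length offset 7 fell and with the covariate 3, and leaving out 1 mouse gave 5 to 8, the fewest without control replicate 6. Their summed level was 263 to 1025 CPM in control mice and 165 to 283 CPM with imatinib. Gpnmb, a glycoprotein of lipid-laden macrophages, was at 8.75, 91.3 and 258 CPM in control mice and 0.296, 3.49 and 9.64 CPM with imatinib (log2 fold change -4.74, SE 0.77, adjusted p = 4.1e-05), and 7 imatinib mice lay below every control. Trem2, the lipid-sensing receptor of the same cells, was at 4.51, 12.3 and 30.8 CPM and 0.279, 2.95 and 11.7 CPM (log2 fold change -2.02, adjusted p = 0.0025; 0.053 with the covariate).

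Lyz2, lysozyme, was at 128, 283 and 388 CPM in control mice and 71.4, 92.2 and 159.8 CPM with imatinib (log2 fold change -1.43, SE 0.27, adjusted p = 3.2e-04). Clec7a (the beta-glucan receptor dectin-1) and Lgals3 (galectin-3) had log2 fold changes of -1.72 (adjusted p = 0.0017) and -1.46 (adjusted p = 0.0062). In Lyz2, 7 imatinib mice lay below every control. Markers of circulating monocytes were low in both groups. Ccr2 was at 1.37, 7.56 and 11.6 CPM and 1.48, 4.16 and 7.53 CPM (log2 fold change -0.70, adjusted p = 0.33), Ly6c2 at 0, 2.11 and 3.97 CPM and 0, 1.58 and 6.12 CPM (0.04, adjusted p = 0.98) and Itgam at 1.74, 3.75 and 5.62 CPM and 1.06, 1.35 and 3.07 CPM (-1.08, adjusted p = 0.33).

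Of 15 Kupffer cell markers 4 fell, with a median log2 fold change of -0.47 and a summed level of 1169 to 2157 CPM in control mice and 749.9 to 1433 CPM with imatinib. Without 1 mouse 2 to 5 fell, with the length offset 5 fell and with the covariate 1 fell. In this list 11 genes had a negative sign and 4 a positive one, and in 6 imatinib mice the summed level lay below every control. Clec4f, Timd4 and Vsig4, which mark the resident cell, overlapped between the groups and were not called. Clec4f was at 102, 189 and 266 CPM in control mice and 126, 204 and 288 CPM with imatinib (log2 fold change 0.17, SE 0.19, adjusted p = 0.66), Timd4 at 2.90, 12.8 and 33.7 CPM and 6.88, 12.9 and 21.5 CPM (log2 fold change 0.01, SE 0.41, adjusted p = 0.99), and Vsig4 at 32.4, 46.8 and 82.0 CPM and 22.5, 46.2 and 62.8 CPM (log2 fold change -0.25, SE 0.23, adjusted p = 0.57). Cd5l, a secreted scavenger protein of the same cells, was at 350.4, 611 and 733 CPM and 176, 249 and 338 CPM (log2 fold change -1.23, SE 0.23, adjusted p = 3.1e-04), without overlap. The pan-macrophage gene Adgre1 (F4/80) had a log2 fold change of -1.35 (edgeR adjusted p = 0.0098) and Cd68 one of -0.80 (adjusted p = 0.038), the latter lost in 12 of the 16 fits without 1 mouse.

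Further macrophage genes were among the 12 largest falls of called protein-coding genes without overlap between groups. Cybb, the phagocyte NADPH oxidase, was at 28.7, 69.4 and 87.2 CPM in control mice and 13.8, 18.0 and 28.5 CPM with imatinib (log2 fold change -1.68, SE 0.27, adjusted p = 4.1e-05). Ctss, the protease cathepsin S, was at 83.3, 159 and 231 CPM and 42.7, 50.6 and 60.8 CPM (log2 fold change -1.57, SE 0.28, adjusted p = 1.7e-04), and Mpeg1, perforin-2, at 158, 307 and 444 CPM and 72.2, 95.6 and 155 CPM (log2 fold change -1.62, SE 0.23, adjusted p = 4.9e-06). Cd180, a toll-like receptor homologue, was at 6.44, 15.7 and 30.5 CPM and 0.142, 4.08 and 6.23 CPM (log2 fold change -2.13, SE 0.39, adjusted p = 2.5e-04). No imatinib mouse reached the lowest control in any of the 4 genes.

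Lysosomal genes fell with them. Of 36 lysosomal hydrolases and membrane proteins 11 fell (13 with the length offset, 4 with the covariate), with a median log2 fold change of -0.33. The summed level of the list was 8105 to 9786 CPM in control mice and 6582 to 7656 CPM with imatinib, without overlap. Log2 fold changes were -1.14 (adjusted p = 0.001) for Laptm5, -0.67 (adjusted p = 0.0019) for Psap (prosaposin), -0.45 (adjusted p = 0.0033) for Ctsb (cathepsin B) and -0.48 (adjusted p = 0.0012) for Man2b1 (lysosomal alpha-mannosidase). Ctsb was at 1093, 1246 and 1560 CPM in control mice and 789, 933 and 1154 CPM with imatinib.

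MHC class II genes, which present antigen to CD4 T cells, were lower as well. Of 10 genes 5 fell (5 with the length offset, 4 with the covariate, 4 without control replicate 5), with a median log2 fold change of -1.28. Their summed level was 247 to 937 CPM in control mice and 150.4 to 302 CPM with imatinib. H2-Aa was at 52.0, 119 and 196 CPM in control mice and 24.7, 40.1 and 53.9 CPM with imatinib (log2 fold change -1.57, SE 0.34, adjusted p = 0.0017), and Cd74, the invariant chain, at 91.2, 248 and 380.4 CPM and 66.4, 94.4 and 126 CPM (log2 fold change -1.41, SE 0.31, adjusted p = 0.0019). The lowest controls met the highest imatinib mice in both genes. H2-Ab1 and H2-Eb1 had log2 fold changes of -1.54 (adjusted p = 0.0016) and -1.53 (adjusted p = 0.0022). Ciita, the master regulator of these promoters, was at 1.61, 6.25 and 19.3 CPM and 1.32, 2.31 and 3.69 CPM (log2 fold change -1.68, SE 0.50, adjusted p = 0.024), and its call was lost without control replicate 5.

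Promoters of H2-Aa (chr17:34287774-34288073, minus strand) and H2-Eb1 (chr17:34305617-34305916, plus strand) are shown, with the same window and build, because several class II genes fell and they share an upstream layout that ends in a CCAAT box. Capitals mark CCAAT on either strand, so the copy on the other strand reads ATTGG.
H2-Aa: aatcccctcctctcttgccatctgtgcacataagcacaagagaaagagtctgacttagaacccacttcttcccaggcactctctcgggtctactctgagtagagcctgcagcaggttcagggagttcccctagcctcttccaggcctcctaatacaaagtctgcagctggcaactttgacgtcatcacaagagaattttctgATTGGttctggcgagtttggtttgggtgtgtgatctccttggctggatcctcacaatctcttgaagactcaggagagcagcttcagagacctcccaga
H2-Eb1: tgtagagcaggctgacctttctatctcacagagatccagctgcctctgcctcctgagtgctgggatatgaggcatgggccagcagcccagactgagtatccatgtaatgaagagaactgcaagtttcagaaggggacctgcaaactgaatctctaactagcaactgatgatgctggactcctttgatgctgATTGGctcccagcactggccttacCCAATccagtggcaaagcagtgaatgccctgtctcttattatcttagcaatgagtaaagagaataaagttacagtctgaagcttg
The H2-Aa window holds 1 copy beginning 48 bases before the start, and that of H2-Eb1 holds 2, at 59 and 35 bases before it. All 7 class II genes with a promoter in the table hold these letters, against 42.8% of tested genes and 37.4% of all promoters. This counts letters and says nothing about occupancy.

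**Figure D4:**
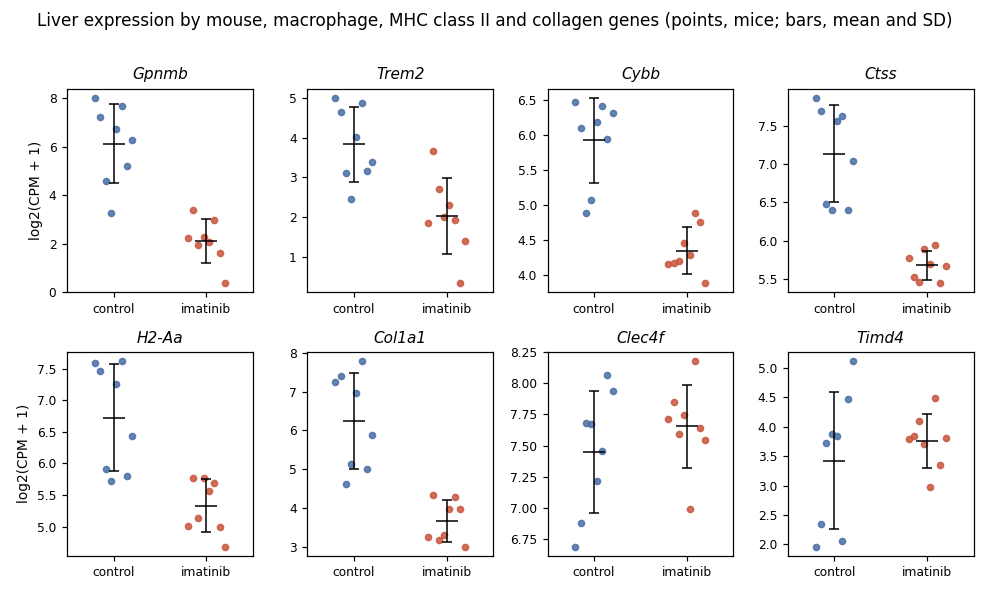
Expression of macrophage genes (Gpnmb, Trem2, Cybb, Ctss), an MHC class II gene (H2-Aa), a collagen (Col1a1) and 2 Kupffer cell markers (Clec4f, Timd4), as log2(CPM + 1), in each of 8 control and 8 imatinib mice with mean and SD as black bars. The first 6 are lower with imatinib, while Clec4f and Timd4 lie in the same range in both groups.

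Chemokine and cytokine genes fell in 7 of 25 cases, with a median log2 fold change of -1.09 (8 with the length offset, 3 with the covariate). Log2 fold changes were -1.54 (adjusted p = 0.0079) for Cxcl10, -1.09 (adjusted p = 0.0039) for Cxcl16, -1.18 (adjusted p = 0.011) for Ccl6 and -0.85 (adjusted p = 0.02) for Cxcl9, lost without imatinib replicate 3 or control replicate 5. Ccl2, the attractant of monocytes, was at 0.684, 7.94 and 11.0 CPM and 0, 0.813 and 4.88 CPM (log2 fold change -1.86, adjusted p = 0.034), a call lost in 9 of the 16 fits without 1 mouse.

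Interferon-stimulated genes fell in 9 of 46 cases (6 with the length offset, 3 with the covariate), and this count hung on 1 mouse. Control replicate 5 had a summed level of 7259 CPM, where the list ran from 1906 CPM upwards in control mice and from 1422 to 2547 CPM with imatinib. Without this mouse 2 genes fell. Gbp2 was at 9.71, 18.4 and 126 CPM in control mice and 4.54, 9.51 and 20.5 CPM with imatinib (log2 fold change -1.53, SE 0.37, adjusted p = 0.0049), and Tap1, the peptide transporter of class I loading, at 44.0, 48.4 and 208 CPM and 29.9, 41.7 and 50.5 CPM (log2 fold change -0.79, SE 0.21, adjusted p = 0.012). Both highest values belong to control replicate 5, and the calls of Gbp2, Tap1, Ifit2 (-1.02, adjusted p = 0.02) and Parp14 (-0.44, adjusted p = 0.014) were lost without it. Ddx58 (the RNA sensor RIG-I), with a log2 fold change of -0.57 (adjusted p = 0.0026), and Oas3, with -1.23 (adjusted p = 0.014), kept their calls. Isg15 had one of -0.13 (adjusted p = 0.87).

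NF-kappa-B genes fell in 4 of 17 cases (2 with the length offset, none with the covariate). The log2 fold change was -0.93 (adjusted p = 0.0088) for Nfkb2, -1.65 (adjusted p = 0.006) for Tnfaip3 (the feedback inhibitor A20), -0.64 (adjusted p = 0.017) for Nfkb1 and -1.13 (adjusted p = 0.048) for Nfkbie. The Nfkb1 call was lost without control replicate 1 and that of Nfkbie in 11 of the 16 fits.

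Markers of the remaining cell types gave few calls. Ecm1 was the 1 gene called among 19 stellate cell markers and it rose (5.26%, beside 5.37% of all genes). It was at 118, 171 and 219 CPM in control mice and 220.2, 248 and 336 CPM with imatinib (log2 fold change 0.61, SE 0.18, adjusted p = 0.022). The call was lost without control replicate 6 or imatinib replicate 6. Lrat, which stores vitamin A in quiescent stellate cells, had a log2 fold change of -0.23 (edgeR adjusted p = 0.53). The summed level of stellate markers was 791 to 1148 CPM in control mice and 776 to 1136 CPM with imatinib. Of 22 markers of sinusoidal endothelium edgeR called 0 and DESeq2 0, with 3 at an unadjusted p below 0.05, and their summed level was 419.7 to 1275 CPM in control mice and 682 to 1088 CPM with imatinib.

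For myofibroblasts (7 tested markers) edgeR called 0, DESeq2 0, and 2 were lower at an unadjusted p below 0.05. Acta2, smooth muscle actin, was at 1.64, 5.66 and 16.3 CPM in control mice and 0.972, 4.25 and 5.82 CPM with imatinib (log2 fold change -0.85, adjusted p = 0.32), and Tagln had a log2 fold change of -0.88 (edgeR adjusted p = 0.094). Cholangiocyte, B cell, T cell, NK cell, neutrophil, dendritic cell, erythroid, mesothelial and pancreatic acinar markers gave 0 calls in edgeR. Of them 1 T cell and 1 dendritic cell marker were at an unadjusted p below 0.05, and DESeq2 called 1 dendritic cell marker. Summed levels were 6.02 to 12.7 CPM in control mice and 3.85 to 10.1 CPM with imatinib for T cell markers, 25.8 to 54.1 CPM in control mice and 34.2 to 90.0 CPM with imatinib for B cell markers and 5.06 to 13.3 CPM in control mice and 2.98 to 15.4 CPM with imatinib for neutrophil markers, of which Ly6g, Ngp and Mpo had no count in any of the 16 mice. None of the 8 mast cell and 5 adipocyte markers passed the filter on low counts, and Cpa3, Mcpt4 and Cma1 of mast cells and Plin1, Lep and Retn of adipocytes had no count.

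Collagen genes fell strongly. Of 7 fibrillar collagens 4 fell (4 with the length offset, where 1 also rose, and 4 with the covariate), and the median log2 fold change was -1.67. Col1a1 was at 23.6, 90.7 and 219 CPM in control mice and 7.01, 11.7 and 19.1 CPM with imatinib (log2 fold change -3.03, SE 0.49, adjusted p = 4.1e-05). Col1a2, the partner chain of type I collagen, was at 24.2, 90.8 and 166 CPM and 12.0, 18.5 and 21.4 CPM (log2 fold change -2.35, SE 0.33, adjusted p = 4.9e-06), and Col3a1 at 60.9, 196 and 361 CPM and 24.9, 33.4 and 42.6 CPM (log2 fold change -2.60, SE 0.39, adjusted p = 1.2e-05). In these 3 genes no imatinib mouse reached the lowest control. The control mice spread widely, and the same mice were high for collagen, macrophage and class II genes. Control replicates 1, 2, 5 and 6 had 150.0, 168, 124 and 219 CPM of Col1a1, where replicates 3, 4, 7 and 8 had 23.6, 34.2, 31.2 and 57.8 CPM. In the same order Gpnmb was at 258, 147, 106 and 205.5 CPM against 22.9, 8.75, 36.1 and 76.4 CPM. For H2-Aa the first 4 mice had 152 to 196 CPM and the other 4 mice 52.0 to 85.9 CPM, so that the medians given above lie between the 2 sets of mice. The Kupffer cell marker Clec4f was lower in the first 4 mice, at 102 to 175 CPM, than in the other 4 mice, at 203 to 266 CPM. Timd4 was at 2.90, 4.11, 13.3 and 3.15 CPM in the first 4 mice and 12.2, 13.7, 21.3 and 33.7 CPM in the others. What sets these mice apart was not tested. Col5a2 had a log2 fold change of -1.67 (edgeR adjusted p = 0.0029). The summed level of the fibrillar collagens was 152 to 859.5 CPM in control mice and 100.4 to 200 CPM with imatinib.

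Other matrix genes were lower too. Of 13 basement membrane, type VI and related collagens 5 fell (4 with the length offset, 3 with the covariate), all 13 had a negative sign, and the median was -0.89. Col4a1 had a log2 fold change of -1.38 (edgeR adjusted p = 3.0e-04), Col14a1 one of -1.03 (adjusted p = 8.0e-04), and Col6a2 and Col6a3 had -1.33 (adjusted p = 0.011) and -1.36 (adjusted p = 0.005). Col4a2 was at 12.2, 48.9 and 62.8 CPM and 13.8, 23.5 and 40.6 CPM (log2 fold change -0.89, adjusted p = 0.027), lost in 6 of the 16 fits. Of 43 matrix proteins and enzymes 14 fell (11 with the length offset, 5 with the covariate), with a median of -0.94, and leaving out 1 mouse gave 9 to 21, the fewest without control replicate 6.

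Bgn, the proteoglycan biglycan, was at 110.3, 198 and 281 CPM in control mice and 94.4, 124 and 146 CPM with imatinib (log2 fold change -0.77, SE 0.19, adjusted p = 0.0048). Fn1, fibronectin, which hepatocytes also secrete, was at 1606, 2121 and 3043 CPM and 1103, 1273 and 2375 CPM (log2 fold change -0.58, SE 0.15, adjusted p = 0.0094). Fbn1 (fibrillin-1) and Lum (lumican) had log2 fold changes of -1.94 (adjusted p = 0.0082) and -0.97 (adjusted p = 0.026), the latter lost without control replicate 1, control replicate 6 or imatinib replicate 5. Dcn, decorin, had one of -0.39 (adjusted p = 0.12). Htra1, a secreted protease, was at 3.22, 5.10 and 6.92 CPM and 0, 0.711 and 2.96 CPM (log2 fold change -1.96, SE 0.61, adjusted p = 0.032), lost in 6 of the 16 fits. Of 22 genes of TGF-beta signalling 1 fell (4.5%, beside 4.25% of all genes), Ccn2 (connective tissue growth factor). Its log2 fold change was -1.29 (adjusted p = 0.049), a call lost with the length offset, with the covariate and in 11 of the 16 fits. Tgfb1 had one of -0.88 (adjusted p = 0.055). Actin and adhesion genes of non-parenchymal cells fell in 11 of 34 cases, with a median of -0.53 (12 with the length offset, 3 with the covariate).

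Of the 8 kinases that imatinib binds 1 fell in RNA. Csf1r, the receptor that macrophages need, was at 71.4, 112 and 159 CPM in control mice and 46.0, 68.02 and 86.0 CPM with imatinib (log2 fold change -0.76, SE 0.25, adjusted p = 0.039), a call lost in 10 of the 16 fits without 1 mouse, with the length offset and with the covariate. Pdgfrb was at 8.72, 26.0 and 41.1 CPM and 9.22, 13.9 and 26.4 CPM (log2 fold change -0.69, SE 0.26, adjusted p = 0.077). Log2 fold changes were -0.17 (adjusted p = 0.5) for Abl1, -0.15 (adjusted p = 0.77) for Abl2, 0.30 (adjusted p = 0.62) for Kit, -0.25 (adjusted p = 0.64) for Pdgfra, -0.49 (adjusted p = 0.52) for Ddr1 and -0.44 (adjusted p = 0.43) for Ddr2.

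Of the 7 ligands of these receptors edgeR called 0, DESeq2 0, and 0 had an unadjusted p below 0.05. The macrophage growth factors Csf1 and Il34 had log2 fold changes of -0.47 (adjusted p = 0.3) and 0.13 (adjusted p = 0.91), and stem cell factor, Kitl, one of 0.38 (adjusted p = 0.75). Those of Pdgfa, Pdgfb, Pdgfc and Pdgfd were -0.14 (adjusted p = 0.89), -0.63 (adjusted p = 0.45), -0.30 (adjusted p = 0.7) and -0.63 (adjusted p = 0.51). Apart from Csf1, every ligand was below 10 CPM in the median mouse of both groups.

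Among plasma proteins made by hepatocytes, complement genes moved both ways. Of 32 genes 3 rose (9.4%, beside 5.37% of all genes) and 7 fell (21.9%, beside 4.25%). With the length offset none rose and 7 fell, and with the covariate none rose and 1 fell. C9, the pore-forming last component, was at 257, 292 and 369 CPM in control mice and 93.5, 130.2 and 175 CPM with imatinib (log2 fold change -1.22, SE 0.20, adjusted p = 4.7e-05), without overlap. C3, the central component, was at 8059.7, 10795 and 12786 CPM and 5064, 5527 and 10021 CPM (log2 fold change -0.70, SE 0.18, adjusted p = 0.0096). Masp1, C8b and C4b had log2 fold changes of -1.20 (adjusted p = 0.0023), -1.01 (adjusted p = 0.015) and -0.63 (adjusted p = 0.015), while C8g (0.55, adjusted p = 0.0039) and, outside the rule for named genes, Masp2 (0.37, adjusted p = 0.047) and Mbl2 (0.34, adjusted p = 0.038) rose. Acute-phase genes fell in 1 of 25 cases (4%, beside 4.25% of all genes), Steap4. It was at 147, 224 and 292 CPM and 57.3, 108 and 125 CPM (log2 fold change -1.12, SE 0.35, adjusted p = 0.032), without overlap but with the call lost in 5 of the 16 fits. Saa1 and Saa2, serum amyloid A, had log2 fold changes of -1.46 (adjusted p = 0.32) and -1.39 (adjusted p = 0.41), with 6 of 8 imatinib mice below all controls in each. The methods differed here, as DESeq2 called both genes lower. With the covariate in edgeR the log2 fold changes were -0.21 and 0.03.

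Zonation markers differ along the path of blood through the lobule. Of 22 pericentral genes 5 rose (22.7%, beside 5.37% of all genes), 3 with the length offset and 4 with the covariate. In this list 18 genes had a positive sign and 4 a negative one, with a median log2 fold change of 0.18. Those that rose include Cyp1a2, Cyp2c37 and Cyp2c29, and Sp5 (log2 fold change 1.43, adjusted p = 0.038) was named after its value was seen. Aldh1b1, a mitochondrial aldehyde dehydrogenase, fell (-0.68, adjusted p = 0.011). Glul, the strictly pericentral glutamine synthetase, had a log2 fold change of 0.17 (edgeR adjusted p = 0.4), and Cyp2e1 one of 0.37 (adjusted p = 0.18). Of 20 periportal genes 15 had a negative sign and 5 a positive one, with a median of -0.23. Among the 20, Apoa4 rose (5%, beside 5.37% of all genes) and 2 fell (10%, beside 4.25%). They were Cps1, at 2516, 3494 and 5008 CPM in control mice and 1149.9, 1823 and 3139 CPM with imatinib, and Pigr, the receptor that carries IgA into bile, at 1012, 1466 and 1953 CPM and 749.8, 917 and 1536 CPM (log2 fold change -0.60, SE 0.14, adjusted p = 0.0047).

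Genes of glucose production and the insulin response fell in 4 of 20 cases (2 with the length offset, 1 with the covariate, none without imatinib replicate 1), Pklr among them. Log2 fold changes were -0.62 (adjusted p = 0.024) for Tat (tyrosine aminotransferase), -0.42 (adjusted p = 0.033) for Slc2a2 (the glucose carrier GLUT2) and -0.33 (adjusted p = 0.047) for Pcx (pyruvate carboxylase), lost in 2, 7 and 11 of the 16 fits. Pck1 and G6pc, the genes most used as readouts, had -0.26 (adjusted p = 0.58) and -0.34 (adjusted p = 0.58). Igfbp2 rose (0.79, adjusted p = 0.021, lost in 3 of the 16 fits) and Igfbp3 fell (-0.66, adjusted p = 0.042), the latter lost in 12 of the 16 fits, and Igf1 had a log2 fold change of 0.25 (edgeR adjusted p = 0.19). Of 19 genes higher in female livers 3 rose (15.8%, beside 5.37% of all genes), Cyp3a16, Cyp3a44 and Sult2a1. The count was 4 with the length offset and 2 with the covariate. In this list 18 genes had a positive sign and 1 a negative one, with a median of 0.55, and 7 imatinib mice had a summed level above every control. Of 12 genes higher in male livers 2 rose (16.7%), Cyp2d9 (0.97, adjusted p = 0.011) and Gstp1 (0.88, adjusted p = 0.012), and C8b fell. Their median was 0.11, with 8 positive signs and 4 negative ones. Hamp and Hamp2, the hepcidins, had log2 fold changes of 0.82 (adjusted p = 0.37) and 0.94 (adjusted p = 0.098). Of 21 iron genes 1 rose (4.76%, beside 5.37% of all genes), Fth1, ferritin heavy chain (0.27, adjusted p = 0.034), lost in 10 of the 16 fits.

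Stress programmes gave few calls. In the ATF4 list of 24 genes 1 rose and 1 fell (4.17% each, beside 5.37% and 4.25% of all genes). Atf4 rose (0.34, adjusted p = 0.029) and Atf3 fell (-1.52, adjusted p = 0.048), lost in 3 and 10 of the 16 fits without 1 mouse. Ddit3 and Trib3 had log2 fold changes of 0.29 (adjusted p = 0.69) and -0.12 (adjusted p = 0.87). Of 30 genes of the endoplasmic reticulum 1 rose (3.33%) and 2 fell (6.67%). Sec61b rose (0.56, adjusted p = 0.043) and Atf6 (-0.46, adjusted p = 0.036) and Ern1 fell, where the first 2 calls were lost in 11 and 8 of the 16 fits. Ern1, the stress sensor IRE1, was at 47.4, 65.1 and 123.3 CPM in control mice and 28.9, 41.1 and 54.6 CPM with imatinib (log2 fold change -0.77, SE 0.17, adjusted p = 0.0018), and Hspa5, its partner chaperone, had -0.22 (adjusted p = 0.62). Of 14 p53 targets 1 rose (7.14%), Bax (0.61, adjusted p = 0.025, lost in 4 of the 16 fits), and Cdkn1a had -0.48 (adjusted p = 0.63). Of 32 cell cycle genes 2 fell (6.25%, beside 4.25% of all genes), Top2a (-1.85, adjusted p = 0.044) and Mcm3 (-1.03, adjusted p = 0.045). Both calls were lost with the length offset, with the covariate and in 13 and 11 of the 16 fits, and Mki67 had -0.87 (adjusted p = 0.3). Of 11 heat shock genes edgeR called 0, with 3 at an unadjusted p below 0.05, and DESeq2 called 3. Of 18 clock genes edgeR and DESeq2 called 0, and 0 had an unadjusted p below 0.05. Arntl ranged over 0.613, 3.68 and 30.4 CPM in control mice and 0.679, 3.51 and 14.2 CPM with imatinib, so mice of both groups covered a wide range.

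Genes of mitochondria, ribosomes and the proteasome rose, and several of these lists hold short genes. Median exonic length was 1495, 1363, 1214 and 2076 bases in complexes I, III and IV and ATP synthase, and 1906 in cytosolic ribosomal proteins. It was 2533 in mitochondrial ribosomal proteins and 2814 in the proteasome, within the second bin by length (2088 to 3405 bases). Of 37 complex I subunits 24 rose and Ndufs1, a large iron-sulfur subunit, fell (-0.38, adjusted p = 0.044; named after its value was seen), with a median log2 fold change of 0.61. With the length offset 16 rose and with the covariate 7. In complex III 7 of 9 rose (6 and 2), in complex IV 11 of 13 (10 and 4) and in ATP synthase 9 of 16 (9 and 2, in the same order). The complex II list of 4 genes had 0 calls in edgeR and in DESeq2, with 3 at an unadjusted p below 0.05. Ndufb11, a complex I subunit, was at 48.3, 64.9 and 72.1 CPM in control mice and 82.5, 112 and 144 CPM with imatinib (log2 fold change 0.84, SE 0.12, adjusted p = 4.7e-06), without overlap.

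Cox6a1, of complex IV, was at 125, 137 and 165 CPM in control mice and 175, 241 and 291 CPM with imatinib (log2 fold change 0.77, SE 0.12, adjusted p = 2.4e-05), and Atp5e, the small epsilon subunit of ATP synthase, at 59.7, 69.5 and 87.8 CPM and 92.4, 142 and 174 CPM (log2 fold change 0.96, SE 0.16, adjusted p = 4.1e-05). Neither overlapped between groups. Log2 fold changes of other small subunits were 0.65 (adjusted p = 1.9e-04) for Ndufa4, 0.69 (adjusted p = 1.1e-04) for Cox4i1, 0.91 (adjusted p = 4.4e-04) for Uqcr11, 0.67 (adjusted p = 8.0e-04) for Uqcrh and 0.90 (adjusted p = 4.8e-05) for Atp5j2. The large catalytic subunits Atp5a1 and Atp5b had -0.05 (adjusted p = 0.79) and -0.06 (adjusted p = 0.72), and Sdha of complex II -0.28 (adjusted p = 0.093). Of 10 genes encoded by mitochondrial DNA 2 rose, mt-Nd1 (0.59, adjusted p = 2.5e-04) and mt-Nd2 (0.46, adjusted p = 0.012). The mt-Nd2 call was lost without imatinib replicate 4, and mt-Co1 had 0.35 (adjusted p = 0.067).

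All 78 cytosolic ribosomal protein genes tested had a positive log2 fold change and 30 rose, with a median of 0.52. With the length offset 18 rose, with the covariate 12, and scaled by library size alone 23. Rps27l was at 54.8, 63.7 and 72.1 CPM in control mice and 103, 134 and 168 CPM with imatinib (log2 fold change 1.08, SE 0.13, adjusted p = 4.5e-07). Rps15 and Rpl32 had log2 fold changes of 0.72 (adjusted p = 2.4e-04) and 0.68 (adjusted p = 3.6e-04). Many of these genes have processed copies elsewhere in the genome, which leaves their counts uncertain. Mitochondrial ribosomal proteins rose in 24 of 75 cases (18 and 9), among them Mrps7 (0.69, adjusted p = 4.8e-04) and Mrpl12 (0.50, adjusted p = 0.0026).

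Proteasome genes rose in 12 of 38 cases, and Psmb9, a subunit induced by interferon and named after its value was seen, fell (-0.72, adjusted p = 0.049). With the length offset 10 rose and with the covariate 4. Psmd4, a ubiquitin receptor of the proteasome cap, was at 81.4, 89.9 and 99.96 CPM in control mice and 113, 146 and 176 CPM with imatinib (log2 fold change 0.66, SE 0.10, adjusted p = 1.4e-05), and Psma7, a core subunit, at 74.4, 84.6 and 90.7 CPM and 99.1, 125 and 139 CPM (log2 fold change 0.55, SE 0.09, adjusted p = 5.0e-05). No control mouse reached the lowest imatinib mouse in either gene. Of 63 translation factors 6 rose (9.52%, beside 5.37% of all genes) and 4 fell (6.35%, beside 4.25%). With the length offset 5 rose and 1 fell, and with the covariate 2 rose and none fell. The genes that fell include Eif4e3 (-1.30, adjusted p = 0.011). Eef1a1, the elongation factor that brings tRNA to the ribosome, was at 1229, 1254 and 1401 CPM and 1117, 1279 and 1510.3 CPM (log2 fold change -0.00, SE 0.09, adjusted p = 1), and Eif4g1, a long scaffold gene, fell (-0.43, adjusted p = 0.0035; adjusted p = 0.053 with the length offset).

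Counts of further lists stand beside the shares of all genes, 5.37% higher and 4.25% lower. Of 36 assembly factors of the respiratory chain 3 rose (8.33%), 2 with the length offset and 1 with the covariate. The 3 are Ndufaf8, Uqcc3 and Cox14, with log2 fold changes of 0.85 (adjusted p = 0.011), 0.97 (adjusted p = 0.0014) and 0.59 (adjusted p = 0.0066). The Ndufaf8 call was lost without imatinib replicate 5. Of 35 genes of amino acid and one-carbon metabolism 3 rose (8.57%) and 1 fell (2.86%). Ahcy (0.52, adjusted p = 0.0094), Bckdha (0.37, adjusted p = 0.025) and Fah (0.32, adjusted p = 0.048) rose and Tat fell. The calls of Bckdha and Fah were lost in 5 and 13 of the 16 fits without 1 mouse. Of 19 subunits of the proton pump of acidic organelles 2 rose (10.5%) and 3 fell (15.8%). With the length offset 1 rose and 4 fell, and with the covariate 1 rose and none fell. Atp6v1f (0.64, adjusted p = 0.0028) and Atp6v0b (0.38, adjusted p = 0.026) rose, while Atp6v1b2 (-0.66, adjusted p = 0.0069), Atp6v1a (-0.59, adjusted p = 0.005) and Atp6v0d2 fell. Atp6v0d2, an isoform of macrophages and osteoclasts, was at 11.2, 19.7 and 40.1 CPM in control mice and 4.13, 8.36 and 16.1 CPM with imatinib (log2 fold change -1.33, SE 0.38, adjusted p = 0.016), lost without control replicate 1. The Atp6v0b call was lost in 5 of the 16 fits.

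Further genes with large falls belong to none of these groups. Ntrk2, the receptor TrkB, was at 31.9, 70.1 and 98.2 CPM in control mice and 7.39, 16.7 and 22.8 CPM with imatinib (log2 fold change -2.06, SE 0.28, adjusted p = 3.3e-06). Ace, the angiotensin-converting enzyme, was at 1.82, 4.26 and 7.13 CPM and 0, 0.453 and 1.39 CPM (log2 fold change -2.79, SE 0.63, adjusted p = 0.003). Snn, stannin, was at 3.47, 5.30 and 7.93 CPM and 0, 2.04 and 3.06 CPM (log2 fold change -1.51, adjusted p = 0.041), lost in 10 of the 16 fits without 1 mouse. All imatinib mice were below all controls in each, but the rule for naming genes favours such a separation. Ace and Snn were close to the detection limit with imatinib.

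Imatinib was then set against nilotinib and ponatinib in the same fit. It differed from nilotinib 10 mg/kg in 424 genes (3.01% of those tested), from nilotinib 30 mg/kg in 466 (3.31%), from ponatinib 3 mg/kg in 324 (2.3%) and from ponatinib 10 mg/kg in 138 (0.979%). All drugs share the control mice, so each is given with its own values. Doses and dosing schedules differ between drugs, and the values are set side by side without matching dose. The drug groups also differed in library measures. The share of non-unique alignments was 33.8 to 36.5% and 34.4 to 42.6% with nilotinib 10 and 30 mg/kg. It was 31.9 to 34.1% with ponatinib 3 mg/kg and 33.7 to 38.5% with ponatinib 10 mg/kg.

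The Cyp1a genes were higher with imatinib than in each nilotinib and ponatinib group. The log2 fold change of Cyp1a1 against control was 5.02 with imatinib and -0.15, 0.39, -0.39 and 0.34 with nilotinib 10, nilotinib 30, ponatinib 3 and ponatinib 10 mg/kg. For Cyp1a2 the values were 2.68 and 0.04, 0.21, -0.07 and -0.29 in the same order. Imatinib exceeded each of these groups in both genes (edgeR adjusted p of 1.2e-05 or less for Cyp1a1 and 8.0e-16 or less for Cyp1a2). Cyp2b10 was higher with imatinib by 3.10, 2.70, 2.99 and 2.37 (edgeR adjusted p = 0.0026, 0.0076, 0.0064 and 0.043). Slc39a5 and Sult2a7 were also higher with imatinib than in each of them (largest edgeR adjusted p = 0.026 and 0.0033). Of the 22 genes of the CAR and PXR list 7, 6, 6 and 5 were higher with imatinib than with the drug named, in the order above.

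Of 37 PPAR-alpha targets 5, 7, 10 and 11 were higher with imatinib than with nilotinib 10, nilotinib 30, ponatinib 3 and ponatinib 10 mg/kg. The difference between these counts was not tested. Acot1 was higher with imatinib by 1.89 and 2.12 on the log2 scale than with ponatinib 3 and 10 mg/kg (edgeR adjusted p = 2.9e-04 and 3.4e-05). Against nilotinib 10 and 30 mg/kg the difference was 0.98 and 0.90 (edgeR adjusted p = 0.066 and 0.091).

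Col1a1 was lower with imatinib than with nilotinib 10 and 30 mg/kg (difference of -2.38 and -2.53 on the log2 scale, edgeR adjusted p = 0.0018 and 9.9e-04). Against ponatinib 3 and 10 mg/kg the difference was -0.72 and -0.25 (edgeR adjusted p = 0.52 and 0.94). Gpnmb differed from nilotinib by -4.79 and -4.36 (edgeR adjusted p = 1.1e-04 and 3.5e-04) and from ponatinib by -1.15 and -0.34 (edgeR adjusted p = 0.5 and 0.95). Of 7 fibrillar collagens 4 were lower with imatinib than with either nilotinib dose, and of 10 class II genes 4 and 5. For Col3a1 the difference from ponatinib 3 and 10 mg/kg was -0.97 and -0.68 (edgeR adjusted p = 0.17 and 0.55), and for H2-Aa -0.25 and -0.22 (edgeR adjusted p = 0.81 and 0.91).

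Of 15 Kupffer markers 7, 6, 3 and 1 were lower with imatinib than with nilotinib 10, nilotinib 30, ponatinib 3 and ponatinib 10 mg/kg, and of 19 monocyte and macrophage markers 9, 6 and 1 than with the first 3 of these. Cd5l differed from ponatinib 3 mg/kg by -1.15 (edgeR adjusted p = 0.0026) and from 10 mg/kg by -0.82 (edgeR adjusted p = 0.059). Lyz2 gave -1.11 and -0.96 (edgeR adjusted p = 0.015 and 0.059). Cholesterol synthesis genes were higher with imatinib than with nilotinib 10 and 30 mg/kg in 11 and 9 of 20 cases. Against control, Fdft1 had -0.06 and -0.06 with nilotinib and 0.60 and 0.85 with ponatinib, beside 0.77 with imatinib, on the log2 scale. Of the lists of short genes, at most 4 of 37 complex I subunits and 4 of 78 cytosolic ribosomal proteins were higher with imatinib than in another of these groups, in both cases ponatinib 3 mg/kg.

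**Figure D5:**
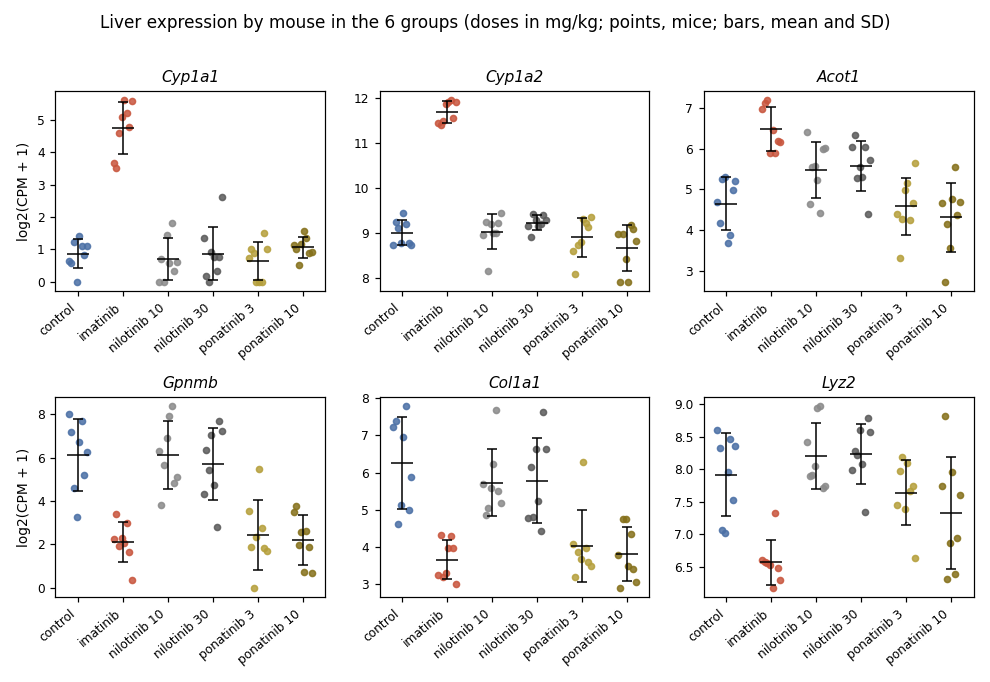
Expression of Cyp1a1, Cyp1a2, Acot1, Gpnmb, Col1a1 and Lyz2, as log2(CPM + 1), in each mouse of the control, imatinib, nilotinib (at 10 or 30 mg/kg) and ponatinib (at 3 or 10 mg/kg) groups, 8 mice each, with mean and SD as black bars. Cyp1a1 and Cyp1a2 are high with imatinib alone among these 6 groups, while Gpnmb and Col1a1 are low with imatinib and in most mice of both ponatinib doses.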

How the data were processed

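Livers of 56 female mice were profiled by poly(A) RNA sequencing, and 16 of them, 8 control and 8 imatinib, enter the comparison described. Groups came from the treatment given in the sample labels, and replicate numbers only follow the order of the records. The authors trimmed and aligned the reads to GRCm38 with TopHat2 2.0.14 and Bowtie2 2.1.0, handled alignments with SAMtools 0.1.18 and assigned reads to genes with HTSeq 0.6.1p1, per the submitters' processing notes. The deposited values are raw, unnormalized counts per Ensembl gene. The strand setting of the counting is not given in the sources used here, so overlapping and antisense genes are uncertain. Reads aligned to more than 1 place were not assigned to a gene, which leaves close gene copies uncertain.

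Counts of 48 mice in 6 groups were filtered (edgeR filterByExpr), scaled by TMM and fitted with edgeR 4.0.16 (quasi-likelihood, 42 residual degrees of freedom before moderation, R 4.3.3), and the contrast of imatinib against control was tested over 14090 genes. HTSeq summary rows stayed out of library sizes and tests. Of the gene identifiers, 842 had no entry in the reference annotation and held 0.059% of the counts. No pair of mice had identical counts. DESeq2 1.42.0 and limma 3.58.1 served as alternatives. The steps were checked on simulated counts. Shares of reads were compared by exact permutation tests over mice, two-sided.

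The genes named are the 12 that rose and 12 that fell most among called protein-coding genes with at least 1 CPM in the higher group and no overlap between groups, the 10 smallest p-values, up to 5 called members and the first 3 entries of each list, and the kinases and ligands of imatinib. The comparison and the gene lists were chosen with earlier results of these data known, so lists are described by counts and medians without a test. Promoters are RefSeq sequences on GRCm38.p6. Results for a few genes are not reported here.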

Additional observations from a re-analysis of the deposited data

Results flagged for a closer look

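In 41 of 630 sets of 8 mice (6.51%) the highest or lowest mouse stood apart by Dixon's criterion. Chance alone gives about 1 in 20 for independent, normally distributed values. The CPM were not log-transformed and the sets share mice, so this share cannot be compared with that rate. Values are CPM of that mouse, or summed CPM for a list, and can be the highest or the lowest of the 8 mice of a group.

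Control replicate 5 was apart at the top for interferon genes. It had 7259 CPM over the interferon-stimulated list, 125.8 for Gbp2, 207.9 for Tap1, 88.21 for Parp14, 38.34 for Isg15 and 47.47 for Cxcl9, and also 30.52 for Cd180. Isg15 was high in imatinib replicate 5 as well, at 42.25.

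Control replicate 7 was apart in hepatocyte and matrix measures, with 45060 CPM over the SREBP1c list, 4246 over matrix proteins and enzymes, 1508 for Lrp1, 112.9 for Ppara, 14.28 for Kit and 16.88 for Cyp3a16.

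Imatinib replicate 6 was apart in sex-biased genes and in several others. It had 2199 CPM over the male-biased list, the highest imatinib value, and 2245 over the female-biased list, the lowest. It had 138.7 for Cyp2d9, 893.4 for Gm26917, 159.8 for Lyz2, 155.3 for Mpeg1, 27.63 for Cdkn1a and 10.4 for Mki67.

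Imatinib replicate 2 was apart in genes of macrophages and perivascular cells, at 11.75 for Trem2, 45.15 for Col4a1, 14.78 for Ddr2 and 5.94 for Pdgfb. Imatinib replicate 4 had 14.09% of uniquely aligned reads outside annotated exons. Imatinib replicate 7 had the highest imatinib value over B and plasma cell markers, 90.05 CPM, and the lowest over the proteasome, 2811. Imatinib replicate 1 had the lowest imatinib value for Cyp2c37, 675.5.

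Among other control mice, replicate 3 was apart for C9 (369.1), Cyp51 (36.24), Uqcr11 (79.87) and Atp5a1 (1443), and replicate 2 for Tat (1640.0), Tagln (48.44) and the dendritic cell list (33.94). Replicate 1 was apart for Trib3 (48.73) and Ern1 (123.3), and replicate 6 for Cyp2c50 (261.2, the lowest control) and Nqo1 (47.66, the highest control).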

How the results depend on the processing

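The number of genes that rose (757) and fell (599) stayed within 1.5 times under other scalings, filters, sets of mice and DESeq2. It moved further under 3 settings. Sample quality weights in limma voom gave 1629 and 1686, an adjusted p below 0.01 gave 347 and 208, and the share of reads outside annotated exons as a covariate gave 232 and 148. The cause was not tested. That share differs between the groups, so group and share are partly confounded in the covariate fit. Leaving out 1 mouse gave 532 to 888 genes up and 411 to 761 down, with the lowest values without control replicate 1 and the highest without imatinib replicate 7. DESeq2 gave 704 genes between imatinib and nilotinib 30 mg/kg in place of 466. Of 236 genes named by rule 173 were called, and none of these called genes changed direction under a setting that was run. The covariate ended 74 of these calls, the stricter threshold 61 and the length offset 37, and leaving out 1 mouse ended 5 to 34. No paired analysis was possible because replicate numbers only follow the order of the records. Depth of 7101060 counts in the shallowest library limits genes below about 1 CPM, which the filter mostly removed.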
